A study of Mus musculus with 778 samples.

Results

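Among 23201 genes counted in single mouse oocytes, 25 were low in the smallest oocytes, rose when growth began and were still present in fully-grown oocytes. They were chosen on the measured levels themselves. UMIs, tags by which copies of 1 molecule are counted once, were added up within a stage and given per 1000000 UMIs of that stage (CPM). A member had at least 20 CPM and at least 8 times the level of non-growing oocytes (NGO) in each of the 4 later stages GO1, GO2, GO3 and FGO. In addition, GO2 had to exceed 0.5 of GO1, and fully-grown oocytes (FGO) 0.5 of GO3. The levels that follow are therefore a description, with no test of the rise.

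The oocytes came from ovaries of wild-type ICR females and were grouped by diameter. NGO measured under 20 μm (46 cells), GO1 30 to 45 μm (51 cells), GO2 50 to 55 μm (26 cells), GO3 60 to 65 μm (44 cells) and FGO over 70 μm (56 cells). Mice were 3 to 4 days old for NGO and 3 to 4 weeks old for all later stages, so growth and age cannot be told apart. Polyadenylated RNA was counted, and no cell could be tied to 1 of the 4 libraries, so each stage is 1 pooled sample. Stage sums ran from 24976634 to 64311908 UMIs, and the 10 deepest cells held 42.6% of the NGO sum and 80.4% of the GO1 sum.

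An oocyte stays small and arrested in its primordial follicle until it is recruited to grow. It then accumulates RNA and protein that serve meiotic maturation, fertilization and the first divisions of the embryo, and its transcription falls silent near full size. CPM is a share of the RNA counted and does not follow the growing RNA content of the cell. Nor is it corrected for gene length, so orders between genes below are orders of UMI share.

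Of 5647 genes with at least 20 CPM in GO1, 207 (3.67%) were at least 8 times above NGO there. Of these 207 genes, 161 also passed in GO2, and 35 passed in all 4 growing stages. The step from GO3 to FGO removed 91 genes, of which 47 were under 20 CPM in FGO and 44 were under 8 times NGO. The requirement for GO2 removed *Cdr2*, and that for FGO removed 9 further genes, among them *Tubal3*, *Tac2* and *Il17f*. Just inside the 8-fold limit were *Pabpn1l* (9.17-fold), *Cmtm7* (9.22-fold) and *Mettl7a3* (9.27-fold), by the lowest growing stage over NGO. Just outside lay *D5Ertd577e* (7.98-fold), *Dusp1* (7.72-fold) and *Crabp2* (7.49-fold).

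**Figure D1:**
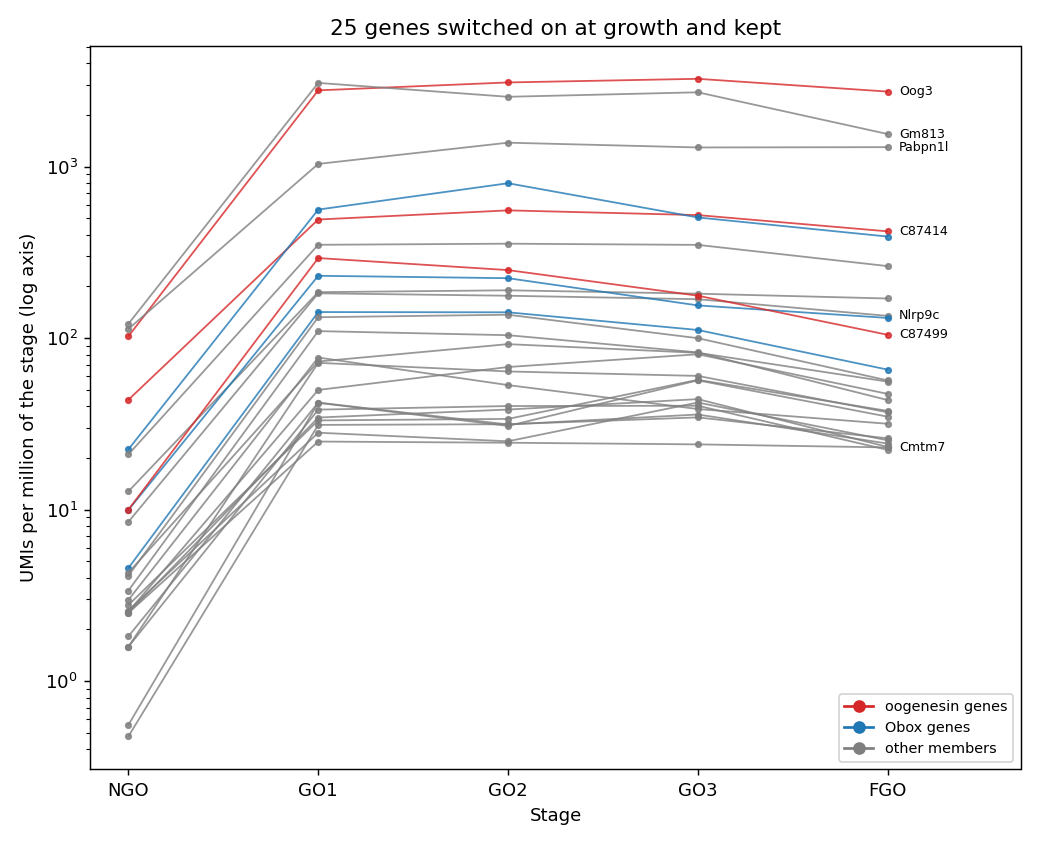
Level of each of the 25 genes (y axis, CPM of the stage, log axis) in the 5 stages (x axis), 1 line a gene and 1 pooled sample a stage. The lines climb between NGO and GO1 and change less after that, although 5 of 25 are at least 2-fold lower in FGO than in GO1. Most of the lines are lowest of the growing stages in FGO.

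The oogenesin genes, which encode leucine-rich repeat proteins of the PRAME-like family, gave 3 members of 14 measured, beside 25 of all 23201 genes. The gene lists were chosen with earlier results of these data known, so counts of members in a list are a description. *Oog3* (chr4:143747460-143752566, minus strand, mm9) had 102.5 CPM in NGO and then 2783, 3095, 3250 and 2738 CPM from GO1 to FGO. It held the largest UMI share of all members in FGO, and its level hardly moved among the growing stages. Its lowest growing-stage cell (581 CPM) stood above its highest NGO cell (262 CPM). *C87414* (*Pramel34* in RefSeq) went from 43.7 CPM in NGO to 491, 556, 521 and 419 CPM from GO1 to FGO. Like *Oog3*, it showed no overlap between NGO cells and growing-stage cells, with 109.1 CPM in the highest NGO cell and 125.3 CPM in the lowest later one. *C87499* (*Pramel32* in RefSeq) had 10.001 CPM in NGO and then 293, 249.2, 177 and 104.5 CPM from GO1 to FGO, a decline at each step after GO1. *Oog1*, *Oog2*, *Oog4* and *C86187* of the same list were also higher in GO1 than in NGO, by 6.11, 4.34, 5.80 and 1.76 times, which left them under the 8-fold limit.

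*Oog3* and *C87499* lie far apart on chromosome 4, and the bases just before their starts are shown because they resemble each other. Laid over each other with a shift of 1 base, 65 of 99 bases were identical (65.7%). Capitals mark the longest run that both hold, of 13 bases, which does not line up at that shift, since it begins 93 bases before the start in *Oog3* and 95 in *C87499*. The stretches are RefSeq's, GRCm38.p6, minus strand, chr4:144162652-144162751 for *Oog3* and chr4:88634187-88634286 for *C87499*.
Oog3: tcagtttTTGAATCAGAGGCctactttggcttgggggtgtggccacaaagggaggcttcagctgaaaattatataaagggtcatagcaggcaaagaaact
C87499: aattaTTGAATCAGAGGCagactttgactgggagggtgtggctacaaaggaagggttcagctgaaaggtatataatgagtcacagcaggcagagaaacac

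The Obox genes, oocyte-specific homeobox genes, gave 3 members of 6 measured, beside 25 of all 23201 genes. *Obox2* (chr7:15939386-15983894, plus strand, mm9) rose from 22.5 CPM in NGO to 562 in GO1 and 800 in GO2, and stood at 505 in GO3 and 391 in FGO. *Obox1* (chr7:16097689-16142215, plus strand, mm9) had 9.96 CPM in NGO and then 231, 223, 155.1 and 131.05 CPM from GO1 to FGO. *Obox7* had 4.56 CPM in NGO and then 141.9, 141.4, 111.5 and 65.5 CPM from GO1 to FGO. All 3 were lowest of the growing stages in FGO. *Obox5* was on in GO1 (715 CPM against 76.1 in NGO) but fell to 310 CPM in FGO, 4.08 times NGO, and so left the group. *Obox3* and *Obox6* stayed under 0.5 CPM in every stage.

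The bases before the starts of *Obox1* and *Obox7* are shown because they are nearly the same sequence. With a shift of 14 bases, 85 of 86 overlapping bases were identical (98.8%), while *Obox1* and *Obox2* shared 33 of 95 at their best shift (34.7%). Capitals mark the longest shared run, of 43 bases. The stretches are RefSeq's, GRCm38.p6, plus strand, chr7:15547157-15547256 for *Obox1* and chr7:14659608-14659707 for *Obox7*.
Obox1: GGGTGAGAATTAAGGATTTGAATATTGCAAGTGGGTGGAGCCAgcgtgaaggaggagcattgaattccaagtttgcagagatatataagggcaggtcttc
Obox7: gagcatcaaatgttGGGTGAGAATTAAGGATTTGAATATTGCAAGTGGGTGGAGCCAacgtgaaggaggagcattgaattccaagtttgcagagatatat

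Copies this alike may bear on the counts. Of the 50-base words in the protein-coding GENCODE transcripts of *Obox1*, 61.5% also occurred in transcripts of other genes, and for *Obox2* the share was 65.4%. It was 95.99% for *Gm6367*, 70.8% for *AA792892*, 51.03% for *C87414*, 47.04% for *Mettl7a3* and 25.9% for *BC100530*. Their levels are less certain, because reads may have been split between copies or counted at the wrong one. The share of words does not measure by how much, and the mapping of reads was not examined. *Oog3* (1.16%), *Nlrp9c* (4.697%) and *C87499* (0.0486%) shared few such words, and 11 of the 25 genes none. *Obox7*, *Gm17830* and *D630033O11Rik* were not in the transcripts used here.

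With *Oog3*, *Gm813* and *Pabpn1l* carried the largest UMI shares of the members. *Gm813* (*Ftdc1* in RefSeq, a ferritin-domain gene; chr16:58613799-58617091, minus strand, mm9) had 121.1 CPM in NGO and then 3076, 2553, 2711 and 1548 CPM from GO1 to FGO. *Pabpn1l* (chr8:125143371-125146639, minus strand, mm9), a cytoplasmic poly(A)-binding protein that takes part in the decay of maternal mRNA, had 113.1 CPM in NGO and then 1037, 1378, 1293 and 1298 CPM from GO1 to FGO. By sums it was 1 of only 2 members above their GO1 level in FGO. It was also the only member among the 20 measured genes of the list for maternal mRNA storage and translation. Its NGO sum leaned on few cells, with 28.5% of its NGO UMIs in 1 cell and NGO cells ranging from 0 to 757 CPM around a median of 27.6. *Oog3*, *Gm813* and *Pabpn1l* together held 66.9% of the members' UMIs in NGO and 72.04% in FGO.

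*Nlrp9c*, of the NLR family that is expanded in oocytes, was the only member among 11 measured oocyte Nlrp genes. It had 8.49 CPM in NGO and then 182, 177, 169 and 134.8 CPM from GO1 to FGO. *Nlrp4e* came nearest to it, at 10.4 CPM in NGO and 7.28 times that in GO1, while *Nlrp9a* and *Nlrp9b* had 54.5 and 58.97 CPM in NGO and 4.26 and 3.11 times that in GO1. *Nlrp5* and *Nlrp14* were lower in GO1 than in NGO (0.599 and 0.442 times).

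Of the members on no role list, *Pacsin1*, a membrane-bending adaptor of endocytosis, had 12.8 CPM in NGO and then 185, 190, 182 and 170 CPM from GO1 to FGO. *Slc12a8*, of the cation-chloride cotransporter family, had 4.13, 132.4, 136.8, 99.9 and 56.7 CPM in the same order. *Slc4a3*, a chloride-bicarbonate exchanger, peaked in GO1 at 77.04 CPM against 2.98 in NGO and 31.7 in FGO. By sums *Pacsin1* was thus nearly level after GO1, whereas both solute carriers were more than 2-fold lower in FGO. With cells weighted equally *Pacsin1* had 92.3, 166.2, 169 and 120.2 CPM from GO1 to FGO, and the log2 difference of FGO and GO1 was −0.72 for *Slc12a8* and −1.58 for *Slc4a3*. *Abcc6*, an ABC transporter, had 2.58 CPM in NGO and between 25.02 and 42.1 in the growing stages. *Enpp2*, the secreted enzyme autotaxin that makes lysophosphatidic acid, went from 2.54 CPM in NGO to 80.5 in GO3. *Dmbt1*, a scavenger-receptor protein, and *Cmtm7*, a MARVEL-domain membrane protein, had the smallest UMI shares of the members in FGO, 22.3 and 23.04 CPM. For *Cmtm7*, 1 cell held 79.4% of the NGO UMIs, the most for any member.

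The remaining members had at most 355 CPM in any stage. *Gm6367* had 20.99 CPM in NGO and between 263 and 355 in the growing stages. It is annotated as protein-coding in GENCODE and as a transcribed pseudogene in RefSeq. *Trim15*, a tripartite-motif gene, had 4.29 CPM in NGO and 55.7 in FGO. *AA792892* had 3.37 CPM in NGO and 110 in GO1, *Ccdc105*, a coiled-coil gene, 1.59 and 71.7, and *Phlda2*, an imprinted gene known for restraining placental growth, 2.78 and 33.1. *Mettl7a3*, a methyltransferase-like gene, went from 2.50 CPM to 34.4. Both members that RefSeq annotates as long non-coding RNAs were low in NGO as well, *D630033O11Rik* at 1.83 CPM and *Gm17830* at 0.476 CPM.

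The largest ratios belonged to genes with almost no UMIs in NGO. *BC100530*, a stefin-like gene, had 14 UMIs in NGO, spread over 10 of 46 cells, and was 75.5 times higher in GO1 (95% counting interval 44.8 to 138.5). *Gm17830* had 12 UMIs in 6 NGO cells, 58.3% of them in 1 cell, and was 65.5 times higher in GO1 (37.3 to 127.2). Over all 25 members the ratio of GO1 to NGO ran from 9.17 to 75.5, with a median of 23.2. In all, 15 members were under 5 CPM in NGO, but none was at 0, and 8 of the 25 had a UMI in every growing-stage cell.

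Summed over the 25 genes, the share of all UMIs was 0.0503% in NGO and then 1.01%, 1.05%, 1.02% and 0.775% from GO1 to FGO. Single cells showed the same order. NGO cells ran from 59.2 to 1352 CPM around a median of 337, while GO1 cells ran from 7571 to 13730 around 10464. The median cell had 10945 CPM in GO2 and 10556 in GO3. FGO cells were both lower and more scattered, from 1980 to 10650.0 CPM around a median of 7247, and 32 of 56 lay below the lowest cell of GO1, GO2 and GO3. No growing-stage cell reached down to the highest NGO cell, a separation that the choice of genes favours. The sum moved with the depth of the cell in FGO (Spearman's rho 0.45 over 56 cells of unknown libraries) and in NGO (0.34 over 46 cells), against 0.06 in GO1, −0.29 in GO2 and −0.15 in GO3. The part of depth in the lower FGO level was not tested.

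**Figure D2:**
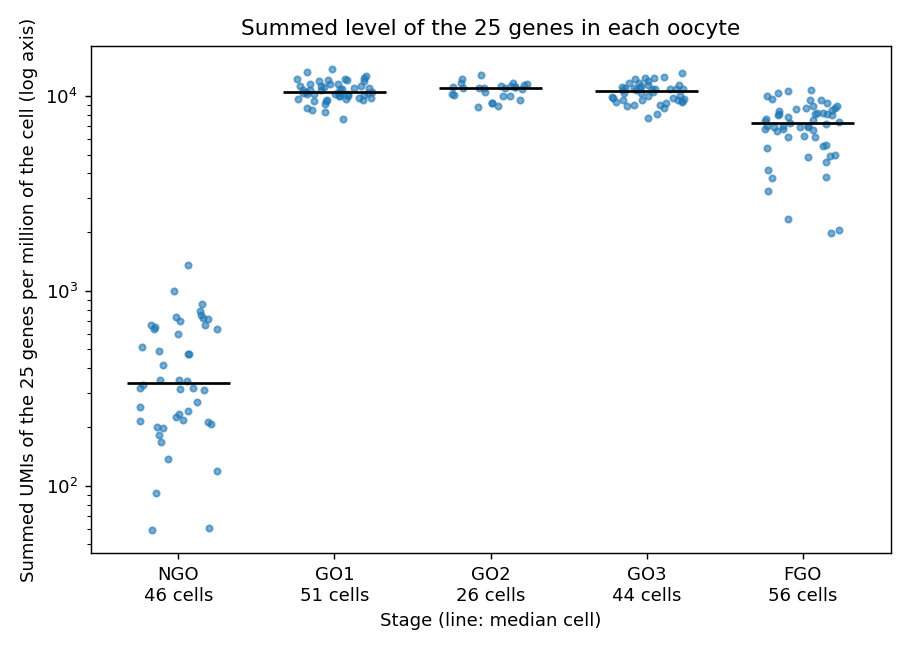
Summed CPM of the 25 genes in each cell (y axis, log axis), 1 point a cell, by stage (x axis), with a line at the median cell. NGO cells end at 1352 CPM and GO1 cells start at 7571, and the FGO cells reach down to 1980.

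How many of the 25 genes count as kept depended on how cells were weighted. Stage sums weigh a cell by its depth. With every cell weighted equally, 21 of 25 still stood at least 8 times above NGO in all growing stages, and *Pabpn1l* had the smallest ratio, 5.20, since its GO1 level was 493 CPM by this measure and 1037 by sums. *Cmtm7* (7.75), *Pacsin1* (7.78) and *Abcc6* (7.90) lay just under the limit. The condition for FGO was lost more often, with 12 of 25 at or under 0.5 of GO3, among them *Gm813* (0.445), *C87499* (0.463) and *Obox7* (0.453). In all, 10 of the 25 passed the whole rule under equal weights. *Oog3*, *C87414*, *Obox1*, *Obox2*, *Nlrp9c*, *Gm6367* and *Gm17830* passed it under all 6 other scalings and weightings tried. Of these, *Obox1* shared 60.5% of its 50-base words with *Obox2*, and *C87414* shared 45.2% with *Gm6367*. The counts within each of these pairs may thus not be separate.

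**Figure D3:**
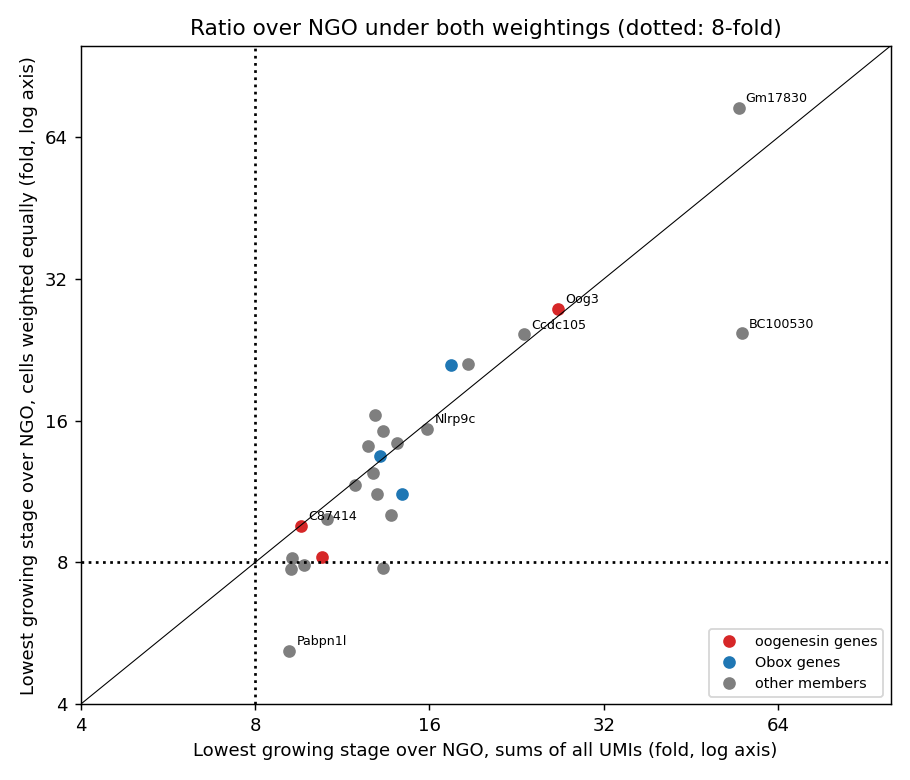
Ratio of the lowest growing stage over NGO for the 25 genes (fold, log axes), from sums of all UMIs (x axis) and with cells weighted equally (y axis), with the 8-fold limit dotted and equality as a line. *Pabpn1l* drops to 5.20 under equal weights, and *BC100530* and *Gm17830* have the largest ratios by sums.

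Between GO2 and GO3, which the rule does not compare, 0 of 25 rose and 0 of 25 fell by 2-fold, where 3.34% and 1.01% of the 7334 genes with at least 10 CPM did; a count of 0 of 25 lies near that background. The largest shifts at this step were *BC100530* (1.84 times higher in GO3), *Phlda2* (1.69) and *Abcc6* (1.68). From GO1 to FGO, 5 of 25 fell at least 2-fold (*C87499*, *AA792892*, *Slc4a3*, *Slc12a8* and *Obox7*) against 9.03% of 7873 genes, and 0 of 25 rose against 7.98%. The rule limits the fall at its first and last step, so these counts are a description.

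By sums, 23 of 25 members were lower in FGO than in GO1, 21 of them with a counting interval wholly below 1. These intervals cover counting error only and not the spread between cells, libraries or animals. *Oog3*, *C87414* and *Pacsin1* were among the 21, although their sign depends on how cells are weighted. The median log2 difference was −0.44, beside 0.02 for the 4857 genes that had 20 CPM or more in all growing stages. *C87499* fell by 1.49 on the log2 scale, *AA792892* by 1.34 and *Slc4a3* by 1.28. At the other end, *Pabpn1l* (0.32) and *Phlda2* (0.18) were higher in FGO, and *Oog3* (−0.02) stood nearest to its GO1 level. FGO was the lowest growing stage for 21 of 25 members and the highest for none, whereas 30.3% and 40.3% of those 4857 genes had their lowest and highest level there. With cells weighted equally the median was −0.73, beside 0.11 over 4448 genes, and 19 of 25 were lower in FGO under both weightings. The sign turned for 5 genes, *Oog3* (0.13), *C87414* (0.11), *Pacsin1* (0.38) and *Cmtm7* (0.63) upward and *Phlda2* (−0.21) downward.

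**Figure D4:**
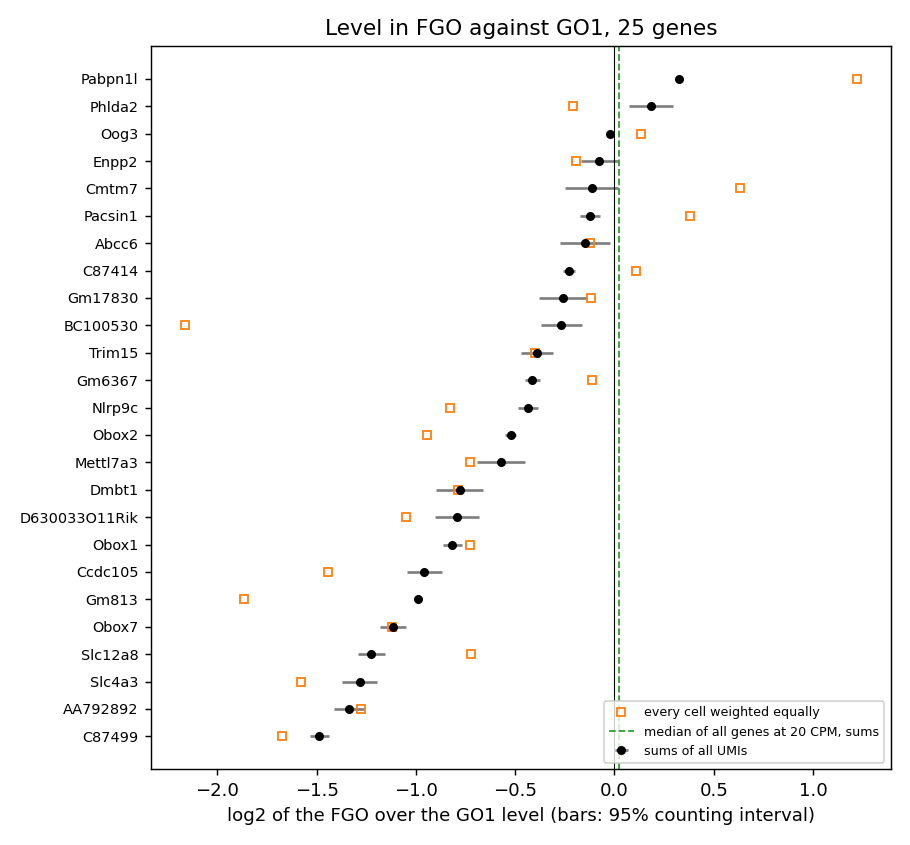
log2 of the FGO over the GO1 level (x axis) for each of the 25 genes (y axis), from sums of all UMIs with 95% counting intervals (filled points) and with cells weighted equally (open squares). The filled points run from −1.49 for *C87499* to 0.32 for *Pabpn1l*, and the dashed line at 0.02 is the median of 4857 genes by sums.

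After each cell was thinned to 20000 UMIs, where 1 UMI is 50 CPM, the median member was found in 6.52% of NGO cells, 68.6% of GO1, 84.6% of GO2, 81.8% of GO3 and 51.8% of FGO cells. Without thinning the shares were 52.2%, 92.2%, 100%, 100% and 94.6%. *Gm813*, the member found most often in NGO, was seen in 39 of 46 thinned NGO cells. Thinned shares of genes under 50 CPM are too near the level of 1 UMI to be read, and in NGO this holds for all members but *Oog3*, *Gm813* and *Pabpn1l*, so no change from NGO is read from the medians. How members varied together between cells differed by stage. Taken for this were the 45 pairs among 10 members with at least 100 CPM in every growing stage. Their median Spearman's rho between cells was 0.25 in NGO and 0.39 in FGO, and 0.15, −0.04 and 0.06 in the stages between. In NGO the 10 genes ran from 8.49 CPM (*Nlrp9c*) to 121.1 CPM (*Gm813*), and *Gm6367* and *Obox1* were at 0 in 18 of 46 cells. The NGO rho thus rests in part on counts near 0. The rho was above 0 for 44 of 45 pairs in NGO and for all 45 in FGO, but for only 29, 21 and 26 in GO1, GO2 and GO3. With the depth of the cell the same genes had a median rho of 0.24 in NGO and 0.46 in FGO, and 0.46, 0.16 and 0.30 in the stages between.

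In the genome, 22 members had a single GENCODE record, and 5 of these lay within 1 Mb of another member (22.7%). Of 4346 other genes with at least 20 CPM in all growing stages, 3.43% lay that near to a member. The 5 were *Obox1* and *Obox2*, with 113795 bases between them on chromosome 7, and *C87414*, *AA792892* and *Gm6367* on chromosome 5. Within 200 kb only *Obox1* and *Obox2* remained. *Obox7* had no single GENCODE record and was not counted. In RefSeq (GRCm38.p6) its stretch at chr7:14659608-14659707 lies within 1 Mb of that of *Obox2* at chr7:15388751-15388850. The 5 counted genes are among the members that share transcript sequence with other genes, so the nearness and the shared words are not separate observations.

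For 17 of the 25 genes RefSeq's promoter table held an entry, 21 windows in all from 250 bases before to 50 after the start, with several for *Slc12a8*, *Trim15* and *D630033O11Rik*. The windows were poor in CpG. Their median ratio of observed to expected CpG was 0.282, beside 0.774 for other genes that reached 10 CPM at some stage, 0.422 for the other genes on in GO1 and 0.384 for all promoters. A ratio of at least 0.6 was found in 3 of 21 windows (14.3%), those of *Pacsin1*, *Phlda2* and *Slc4a3*, beside 34.8% of the windows of the other genes on in GO1, 35.8% of all promoters and 71.7% for the other genes that reached 10 CPM. The members' counting interval for this share (3.05% to 36.3%) holds the first 2 of these values and not the third. It treats the 21 windows as separate, although some belong to the same gene and those of *Obox1* and *Obox7* are much alike, so it is too narrow. Median GC content was 53%, the same as for the other genes on in GO1 (53%) and near that of all promoters (52.7%), beside 60.7% for the other genes that reached 10 CPM.

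**Figure D5:**
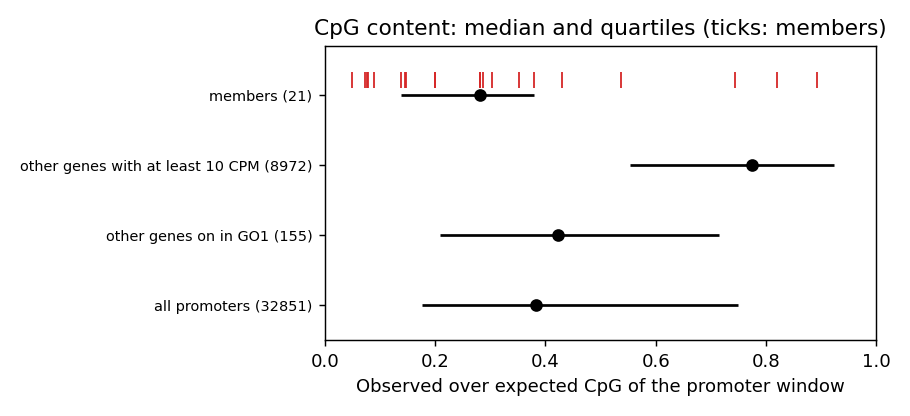
Observed over expected CpG (x axis) of promoter windows in 4 groups (y axis, number of windows in brackets), with the median as a point, the quartiles as a bar and the members' windows as ticks. The members' median is 0.282 and that of other genes with at least 10 CPM is 0.774.

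Of the motifs searched on both strands, TATAAA, the core of a TATA box, was in 3 of 21 member windows (14.3%) and in 13.6% of all promoters. The 3 were *Oog3*, *Phlda2* and *Gm17830*, where the motif began 29, 30 and 31 bases before the start. The other genes on in GO1 had TATAAA in 10.97% of the full windows. In the 100 bases before the start the shares were 14.3% for members, 5.56% for all promoters and 5.16% for the other genes on in GO1. CANNTG, the E-box bound by basic helix-loop-helix factors, was in 20 of 21 windows (95.2%), beside 72.3% of all promoters and 70.97% of those of the other genes on in GO1. In the 100 bases before the start it was in 71.4%, beside 34.4% of all promoters. TAATTA and TAATTG, letters that homeodomains can bind, were in 0% and 14.3% of the members' windows and in 5.29% and 8.0% of all promoters. The other genes on in GO1 had them in 7.10% and 12.9% of windows. As with CpG, some of the 21 member windows belong to the same gene or are much alike, so they are not separate observations. The windows with a TATA motif at the usual place are shown for *Phlda2* and *Gm17830*, with TATAAA and, in *Gm17830*, TAATTG in capitals (RefSeq, GRCm38.p6, minus strand, chr7:143502525-143502624 and chr17:49312961-49313060).
Phlda2: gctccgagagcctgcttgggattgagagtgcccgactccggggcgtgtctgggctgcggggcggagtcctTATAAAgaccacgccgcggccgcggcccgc
Gm17830: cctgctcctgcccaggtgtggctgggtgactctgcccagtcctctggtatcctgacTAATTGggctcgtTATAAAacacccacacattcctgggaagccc

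The role lists other than those named above were without members. The lists for the zona pellucida, secreted growth factors, oocyte transcription factors, the subcortical maternal complex, oocyte secreted proteins, oocyte Oas1 genes, the Fbxw and Tcl1 clusters, mRNA decay, meiotic arrest and resumption, the spindle, chromatin and DNA methylation, fertilization, junctions with granulosa cells, the ubiquitin pathway and small RNAs held 0 members. *Pabpn1l*, described above as taking part in mRNA decay, was only on the list for mRNA storage and translation. With 25 members among 23201 genes, a count of 0 in a short list lies near the background. The lists moved in both directions between NGO and GO1. The 10 oocyte markers summed to 26004 CPM in NGO and 13504 in GO1, and the 4 zona pellucida genes, 3 of which are also among those markers, to 18202 and 6312. In contrast, the 13 Fbxw genes summed to 6621 CPM in NGO and 20661 in GO1, the 3 oocyte secreted protein genes to 541 and 2988, the 14 mRNA decay genes to 1444 and 3267 and the 6 Tcl1 genes to 2715 and 4326. *Oosp3*, at 67.4 CPM in NGO and 1212 in GO1, passed in GO1 but was 6.80 times NGO in FGO. The lists overlap in a few genes.

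Markers of neighbouring cells were low, and their sums moved in both directions between NGO and GO1. The 14 granulosa cell markers summed to 16.5 CPM in NGO and then 46.7, 37.996, 37.1 and 21.4 CPM from GO1 to FGO, with cells from 0 to 43.6 CPM in NGO and from 0 to 277 in GO1. Of them, the defining markers *Amh* and *Foxl2* stayed under 0.3 CPM in every stage, and *Cyp19a1* went from 1.11 CPM in NGO to 16.3 in GO1. *Inha*, *Inhbb*, *Kitl*, *Nr5a2*, *Hsd17b1*, *Gja1*, *Amhr2* and *Fst* were also higher in GO1 than in NGO. *Fshr*, *Inhba* and *Wt1* were lower. The 10 blood and vessel markers summed to 9.37, 39.3, 42.6, 51.1 and 28.5 CPM, nearly all of it *Pecam1* after NGO, while *Hba-a1* and *Hbb-b1* were at 0. The 11 theca and stroma markers went the other way, from 14.5 CPM in NGO to 5.76 in GO1. The part of these cells in the members' rise was not tested.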

How the data were processed

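Per the labels and the methods of the study, the authors split the reads by cell barcode, trimmed them, mapped them onto mm9 transcripts with Tophat v2.0.12, removed UMI duplicates and deposited raw UMI counts per gene and cell. Strand handling in counting is not given in the sources used here. The labels tie no cell to any of the 4 libraries, so each stage was 1 pooled sample and no test was run. The spread between animals and libraries is unknown, and intervals (exact, 95%) cover counting error only. Counts were summed per stage and scaled to CPM. The members and the gene lists were chosen with earlier results of these data known. Named genes are the members, the genes next to the limits of the rule and genes of the role lists. edgeR 4.0.16 and DESeq2 1.42.0 (R 4.3.3) gave alternative scalings only. Other work used pandas 2.3.3, numpy 2.4.6, scipy 1.17.1 and matplotlib 3.10.9 in Python 3.11.15. No doublet caller was run, since oocytes were picked by hand. Promoter sequences are RefSeq's (GRCm38.p6), and gene positions are GENCODE's (NCBIM37, the same build as mm9). The iscCOOL-seq data and spike-ins were not analysed here.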

Additional observations from a re-analysis of the deposited data

How the results depend on the processing

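No paired analysis was possible because the cells carry no replicate numbers and no result comes from a test. The rule gave 99 genes with a 4-fold limit, 6 with 16-fold, 13 with a minimum of 50 CPM, 553 with no minimum, 11 with cells weighted equally and 13 in cells thinned to 20000 UMIs, and of the 25 members 25, 6, 13, 25, 10 and 8 were among them. Of the 17 members lost in thinned cells, 13 failed on the halving limits, 7 on the 8-fold limit and 5 on the CPM minimum. The members' summed CPM, with cells weighted equally, without the 10 deepest cells of each stage and in thinned cells, was 429.9, 366 and 437 in NGO, 10604, 11126 and 10628 in GO1, 10691, 10296 and 10886.5 in GO2, 10420.0, 10520.1 and 10494 in GO3, and 7018, 7406 and 7046 in FGO. From GO1 to FGO, 10 members fell by 1.5-fold, and in each of these 3 weightings 8 fell and 1 rose 2-fold. From GO2 to GO3, 1 member fell and 3 rose by 1.5-fold, beside 2.99% and 10.5% of all such genes. Rises of 2-fold numbered 1 with cells weighted equally and 2 without the 10 deepest cells, beside 5.09% and 5.88% of all such genes. The median member was found, with all UMIs, in 52.2%, 92.2%, 100%, 100% and 94.6% of NGO to FGO cells, and in 15.2%, 92.1%, 96.2%, 95.5% and 73.2% of the same cells thinned to 50000 UMIs, which left out 13 GO1 cells. In windows cut to the 100 bases before the start CANNTG was in 71.4% and TAATTG in 4.76%, and 2 members lay within 200 kb of another. TMM and DESeq2 scaling gave 35 and 28 genes with all 25 members among them. Sums without the 10 deepest cells gave 21 genes with 13 of the members, and 26 cells per stage gave 27 genes with 21. A minimum of 10 CPM gave 37 genes with all 25 members.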
